A study of Ovis aries with 6 samples.

Results

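Ubiquitin-conjugating (E2) enzymes and the ubiquitin-specific protease (USP) class of deubiquitinases were described in the longissimus dorsi, the long back muscle, of sheep from a pair of breeds, Qianhua Mutton Merino (abbreviated QHMM) and Small Tail Han (abbreviated STH). The members were all rows of the count table whose symbol began with UBE2 and a letter or with USP and a digit, which gave 74 of 23144 genes, 28 E2 and 46 USP genes. The breeds were compared as STH vs. QHMM, and the E2 and USP genes were described apart. Of these genes, 1 E2 (UBE2Q1) and 1 USP (USP54) were up-regulated in STH and none was down-regulated, in each family a share near the 3.45% of all tested genes that were called. The symbols covered most but not all of these enzyme families, and some of the members are not enzymes of the kind named. Among these, UBE2V2 is an E2 variant without a catalytic cysteine, and USP39 is a splicing factor without one. USP6NL, a Rab GTPase-activating protein, was only named after USP6. UBE2M, UBE2F and UBE2L6 carry ubiquitin-like proteins.

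The samples were 3 QHMM and 3 STH females aged 1 year, raised in the same environment on free feed, with 1 library per animal. QHMM is a new variety bred for meat and wool, and STH is a local variety. The study's methods state that live weight was taken after a fast before slaughter. The labels give no treatment, so breed was the only labelled difference, and the order of slaughter and of library preparation was not given in the sources used here. Messenger RNA with a poly(A) tail was fragmented with RNase III and read on an Ion Proton instrument.

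Ubiquitin is a small protein that cells attach to other proteins as a signal, often for destruction by the proteasome. An E1 enzyme activates it, an E2 enzyme carries it, and an E3 ligase directs it to a target. The E2 often sets which kind of chain is built. Deubiquitinases remove ubiquitin again, and the USPs are their largest class. In skeletal muscle this system breaks down contractile proteins during fasting and disuse, when the E3 ligases TRIM63 (MuRF1) and FBXO32 (atrogin-1) are induced.

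Each library had 10982191 to 14334544 reads on genes. All 9 muscle markers that had a row were expressed, at a summed 71936 to 113731 RPKM (reads scaled by gene length and library total), and the 3 blood markers with a row summed to at most 0.403 RPKM. Breed separated the libraries on the first principal component (43.6% of the variance). QHMM replicate 2 and STH replicate 3 stood away from the remaining libraries on the second (19.3%), and results are given without them where they matter. In whole tissue, fewer cells of a type and less RNA per cell cannot be told apart.

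Of the 28 E2 genes, 27 passed edgeR's filter on low counts, and of the 46 USP genes, 41 did. Counts were scaled by edgeR's TMM factors (normalized counts), and a gene was called when its false discovery rate (FDR, the p-value adjusted over all 12506 tested genes) was below 0.05 and its fold change exceeded 1.5 in either direction. By this rule 1 of 27 E2 genes (3.70%) and 1 of 41 USP genes (2.44%) were called, against a background of 3.45% of all tested genes, 1.62% higher and 1.83% lower in STH. An unadjusted p below 0.05 was reached by 4 E2 genes (14.8%, 3 higher and 1 lower in STH) and 7 USP genes (17.1%, 6 higher and 1 lower), against a background of 19.2%, with 9.43% higher and 9.72% lower. The 3 STH libraries lay entirely above or below the 3 QHMM libraries for 4 E2 genes (14.8%, 2 above and 2 below) and 9 USP genes (22.0%, 7 above and 2 below), against a background of 24.7%, with 13% above and 11.7% below. The shares of both families were close to or below those of all tested genes. With 3 animals against 3, an exact permutation test of a single gene cannot give a p below 0.1.

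The log2 fold changes of the E2 genes had a median of 0.10, with quartiles of -0.10 and 0.25. Those of the USP genes had a median of 0.12, with quartiles of -0.16 and 0.41, and the median over all tested genes was 0.02. The fold change was positive for 18 of 27 E2 genes (66.7%) and 25 of 41 USP genes (61.0%), against 51.8% of all genes. A log2 fold change of at least 0.5 in size was seen in 5 E2 genes (18.5%) and 9 USP genes (22.0%), against 32.9% of all genes. The E2 median was -0.01 without QHMM replicate 1, -0.03 without STH replicate 2, 0.04 without QHMM replicate 2 and 0.05 without STH replicate 3. The USP median was 0.01 without STH replicate 2, 0.18 without QHMM replicate 3 and 0.24 without STH replicate 3, so both medians changed when single animals were left out.

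**Figure D1:**
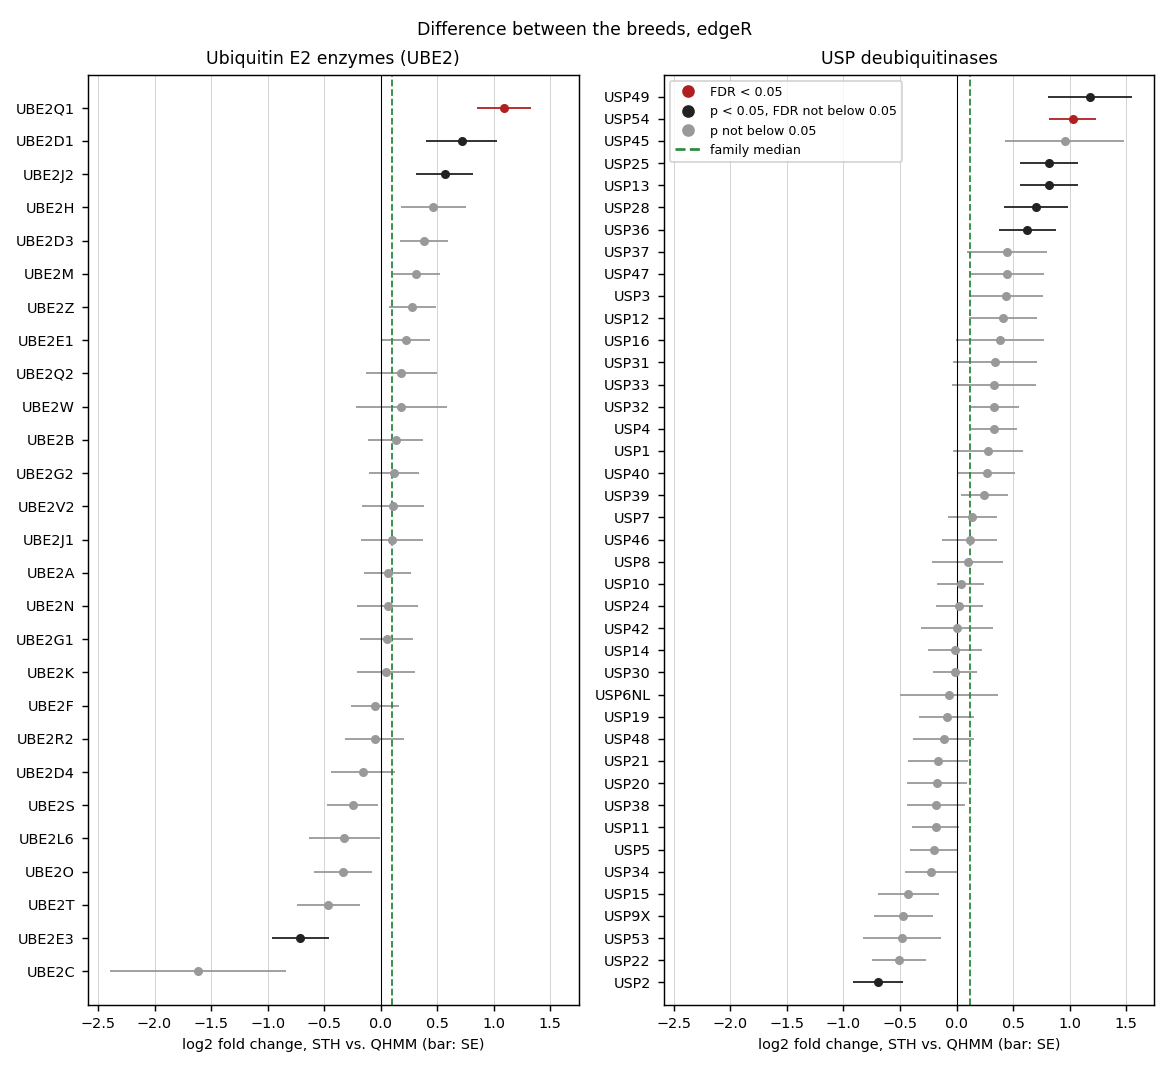
Log2 fold change (STH vs. QHMM, x axis) of the 27 tested E2 genes (left) and 41 tested USP genes (right), with bars for the standard error (SE); red marks an FDR below 0.05, black an unadjusted p below 0.05, and the dashed line the median of the family. UBE2Q1 at 1.09 and USP54 at 1.03 are the red points, while USP49 lies farther out at 1.18 with a wider bar, and UBE2C at -1.61 has the widest bar.

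Levels differed more between members than between breeds. On the RPKM scale, the tested E2 genes ranged in their mean over the 6 libraries from 1.39 (UBE2W) to 92.5 (UBE2M). The 5 E2 genes with the highest means held 54.4% of the summed RPKM of the 28. These were UBE2M, which carries the ubiquitin-like protein NEDD8 (92.5 RPKM), UBE2D4 (73.7), UBE2G1 (55.2), UBE2G2 (42.0) and UBE2E1 (28.7). CDC34, an E2 outside the symbol rule, had a higher mean of 414 RPKM. The tested USP genes ranged from 0.591 (USP6NL) to 58.2 RPKM (USP13), and USP13, USP2, USP7, USP28 and USP5 held 40.5% of the summed RPKM of the 46. A mean of at least 10 RPKM was reached by 17 E2 and 15 USP genes. The gene lengths behind the RPKM values had a median of 1582 bases for the E2 and 3531.5 for the USP genes. Lengths of 459, 561 and 753 bases for UBE2N, UBE2M and UBE2H were multiples of 3, as of coding sequences alone. So were 10 of the 28 E2 lengths and 41.3% of those of tested genes, so this trait alone does not mark a coding sequence. The RPKM of UBE2N, UBE2M and UBE2H may not be comparable with that of genes whose untranslated regions were included.

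The summed level of each family overlapped between the breeds. The E2 genes summed to 493 ± 54.2 RPKM in QHMM and 581 ± 56.5 in STH (mean ± SD, n = 3), with 451, 474 and 554 in QHMM replicates 1 to 3 and 575, 640 and 527 in the STH replicates. The USP genes summed to 433 ± 47.4 RPKM in QHMM and 515 ± 85.6 in STH, with 429, 388 and 482 in QHMM and 545, 582 and 419 in STH. On this scale STH replicate 2 had the highest sum of each family, and the lowest STH library lay below the highest QHMM library. On the scale of normalized counts the E2 sum was highest in STH replicate 3 (12133, against 12030 in STH replicate 2), and the lowest STH sum of the USP genes was in STH replicate 1 (22612). The E2 sums on that scale were 10215 ± 1240 in QHMM and 11221 ± 1492 in STH (mean ± SD, n = 3). Those of the USP genes were 22126 ± 1419 and 24171 ± 1894.

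**Figure D2:**
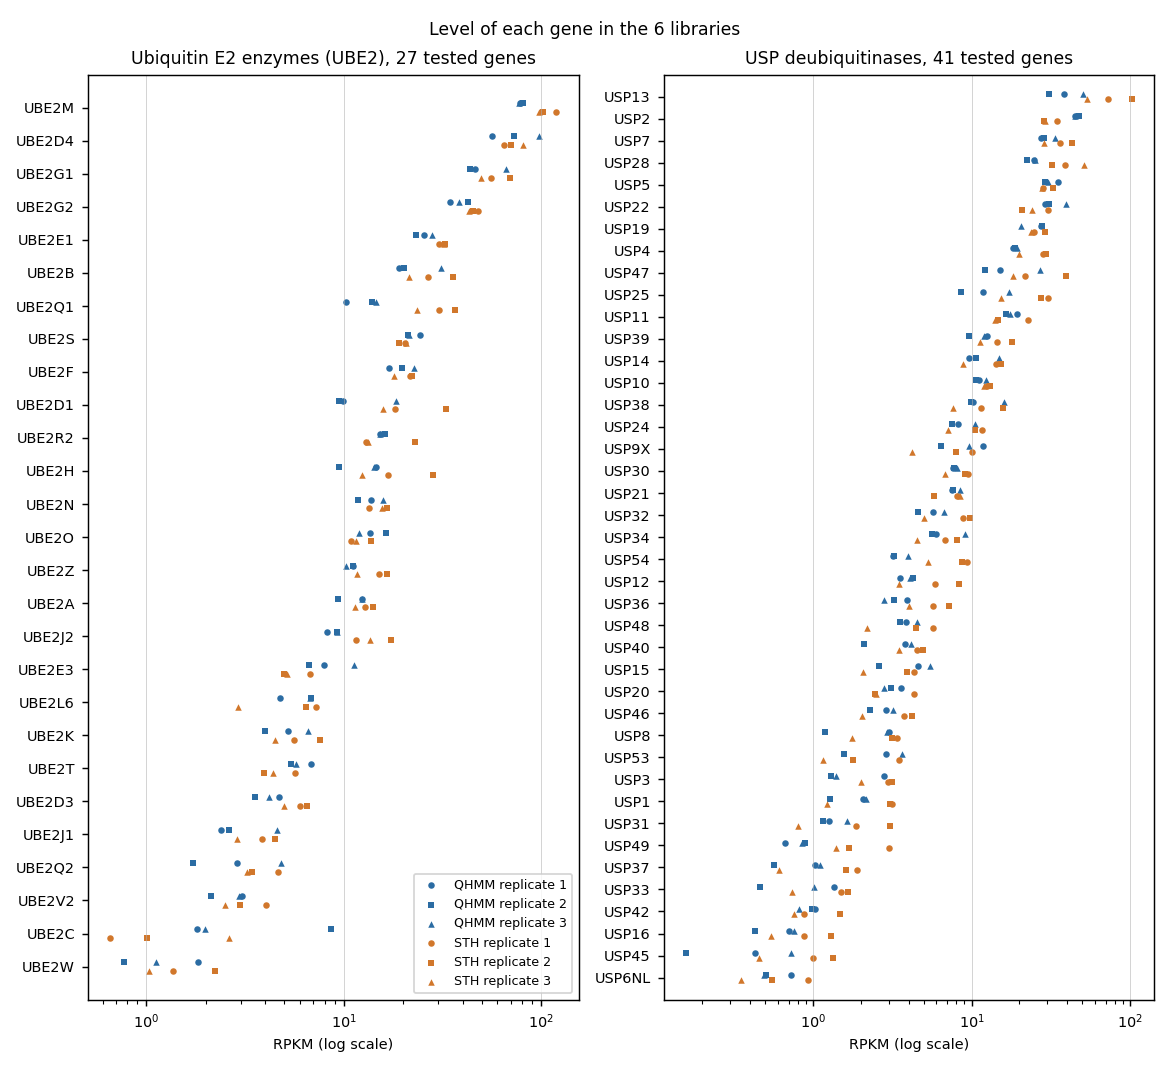
RPKM on a log scale (x axis) of every tested E2 gene (left) and USP gene (right) in the 6 libraries, sorted by the mean; blue marks QHMM, orange STH, and the shape the replicate. The members span from below 1 to over 90 RPKM, while the libraries of a gene mostly lie close together, UBE2C in QHMM replicate 2 being an exception.

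UBE2Q1 was the E2 gene that rose in STH. It encodes an E2 with a long N-terminal extension ahead of its catalytic fold. Its normalized counts were 404, 647 and 566 in QHMM replicates 1 to 3 and 1013, 1329 and 1103 in the STH replicates. All 3 STH libraries lay above the QHMM libraries, with means of 539 ± 124 and 1148 ± 163 (SD, n = 3). The log2 fold change was 1.09 with an SE of 0.24, a 2.13-fold difference, and the FDR was 0.0375. Leaving out 1 library gave log2 fold changes between 0.90 and 1.25, and the FDR stayed below 0.05 in 1 of these 6 fits, without STH replicate 1 (0.0382). It was 0.131, 0.0618 and 0.103 without QHMM replicates 1, 2 and 3, and 0.111 and 0.0618 without STH replicates 2 and 3. Its relative UBE2Q2 had 73.2 to 168 normalized counts in QHMM and 112 to 141 in STH, a log2 fold change of 0.18 with an SE of 0.31. The breeds overlapped for UBE2Q2, and it was not called.

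The UBE2D enzymes work with many different E3 ligases and start chains on a target. UBE2D1 had 158, 178 and 286 normalized counts in QHMM and 243, 479 and 299 in STH. The breeds overlapped, with STH replicate 2 the highest, and the log2 fold change of 0.72 (SE 0.32) had an FDR of 0.249. UBE2D3 had 204, 184 and 179 in QHMM and 222, 261 and 256 in STH, so that all STH libraries were higher, by a log2 fold change of 0.38 (SE 0.21, FDR 0.363). UBE2D4, by RPKM the most abundant of the 3, had 992 to 1680 in QHMM and 963 to 1688 in STH (log2 fold change -0.15).

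The UBE2E enzymes, UBE2H and UBE2W add the first ubiquitin to their targets or build short chains. UBE2E3 was lower in every STH library, with 161, 160 and 225 normalized counts in QHMM and 115, 93.3 and 124 in STH. The difference of -0.71 on the log2 scale (SE 0.25) had an FDR of 0.153, so it was not called. UBE2E1 had a log2 fold change of 0.22, and the row UB2E2, tied to UBE2E2 by the homology columns of the table, one of -0.11. UBE2H, whose yeast counterpart works in the breakdown of metabolic enzymes, had 108 to 139 normalized counts in QHMM and 136 to 248 in STH (log2 fold change 0.46, SE 0.29). UBE2W, which modifies the N-terminus of proteins, had between 20.9 and 46.6 in the 6 libraries.

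UBE2N pairs with UBE2V1 or UBE2V2 to build chains linked through lysine K63, which serve in signalling and DNA repair. Its log2 fold change was 0.06 (SE 0.27), that of UBE2V2 was 0.11 (SE 0.27), and the row tied to UBE2V1, LOC101122296, had -0.38 (SE 0.23). UBE2K, UBE2G1, UBE2G2 and UBE2R2 build K48-linked chains, the usual signal for the proteasome. Their log2 fold changes were 0.05, 0.05, 0.11 and -0.05. Among the E2 genes named UBE2, UBE2G1 had the most reads. It had 1555 to 2205 normalized counts in QHMM and 1589 to 2140 in STH, a range of STH values inside that of QHMM. The SE of these 4 values lay between 0.22 and 0.26, so that differences of this size could not be told from 0.

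UBE2J1 and UBE2J2 are anchored in the membrane of the endoplasmic reticulum and act on misfolded proteins. UBE2J2 had 213, 282 and 236 normalized counts in QHMM and 253, 410 and 418 in STH. STH replicate 1 lay below QHMM replicate 2, and the log2 fold change of 0.56 (SE 0.25) had an FDR of 0.254. UBE2J1 had a log2 fold change of 0.10 (SE 0.28).

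UBE2A and UBE2B are close relatives of yeast Rad6, which act on histone H2B and in DNA repair. Their log2 fold changes were 0.06 (SE 0.21) and 0.13 (SE 0.24). UBE2C and UBE2S serve the anaphase-promoting complex in dividing cells, and UBE2T acts in the Fanconi anaemia pathway of DNA repair. UBE2C had 18.6, 106 and 20.1 normalized counts in QHMM and 5.73, 9.54 and 32.2 in STH, so its values were set by QHMM replicate 2 and STH replicate 3. Its log2 fold change was -1.61 (SE 0.78, FDR 0.289), but -0.31 without QHMM replicate 2 and -2.64 without STH replicate 3. UBE2T had 75.3, 70.8 and 62.5 in QHMM and 53.2, 40.3 and 57.8 in STH. It was lower in all STH libraries (log2 fold change -0.46, SE 0.28, FDR 0.406). UBE2S had a log2 fold change of -0.25 (SE 0.22), with 2 of 3 STH libraries below the QHMM range. Of 11 proliferation markers, 7 were tested and 0 called, against 3.45% of all tested genes, and DESeq2 and limma called 0. With edgeR 2 (MKI67 and TOP2A) had an unadjusted p below 0.05, both lower in STH, against 19.2% of all tested genes. The mitotic markers CDK1, BUB1, AURKA and CDC20 had too few reads to be tested. The summed level of all 11 markers was 10.1 to 18.0 RPKM in QHMM, highest in replicate 3, and 11.4 to 12.0 in STH, so QHMM replicate 2, where UBE2C was highest, had the lowest sum.

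A further 4 E2 genes carry ubiquitin-like proteins or serve a second E1. UBE2M and UBE2F carry NEDD8, which switches on cullin ligases. UBE2M had 538 to 688 normalized counts in QHMM and 666 to 827 in STH (log2 fold change 0.31, SE 0.21), and UBE2F had a log2 fold change of -0.05 (SE 0.21). UBE2L6 carries ISG15, an interferon-induced ubiquitin-like protein, and had a log2 fold change of -0.32 (SE 0.32). UBE2Z, which takes its ubiquitin from the E1 enzyme UBA6, had 360 to 472 in QHMM and 454 to 544 in STH (log2 fold change 0.28, SE 0.21). None of these was called. UBE2O, a large enzyme that acts as E2 and E3 in 1 protein, had 522 to 862 in QHMM and 409 to 607 in STH (log2 fold change -0.33, SE 0.25). UBE2U had 0 or 1 read per library, so no difference in it was detectable at this depth.

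USP54 was the USP gene that rose in STH. USP54 and its paralogue USP53 were long annotated as homologues without protease activity. USP54 had 213, 257 and 259 normalized counts in QHMM and 527, 534 and 421 in STH. All STH libraries lay above the QHMM libraries, with means of 243 ± 25.6 and 494 ± 63.3 (SD, n = 3). The log2 fold change was 1.03 with an SE of 0.21, and the FDR was 0.0300. Without 1 library it lay between 0.92 and 1.13, and the FDR stayed below 0.05 in 1 of the 6 fits, without STH replicate 3 (0.0356). It was 0.114, 0.0818 and 0.0844 without QHMM replicates 1, 2 and 3, and 0.0549 and 0.0897 without STH replicates 1 and 2. With limma-trend on log2(RPKM + 1) its FDR was 0.0827. USP53 had 105 to 200 normalized counts in QHMM and 76.7 to 165 in STH, a log2 fold change of -0.48 (SE 0.34) opposite in sign to that of USP54. USP39, the splicing factor without a catalytic cysteine, had a log2 fold change of 0.25 (SE 0.21).

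**Figure D3:**
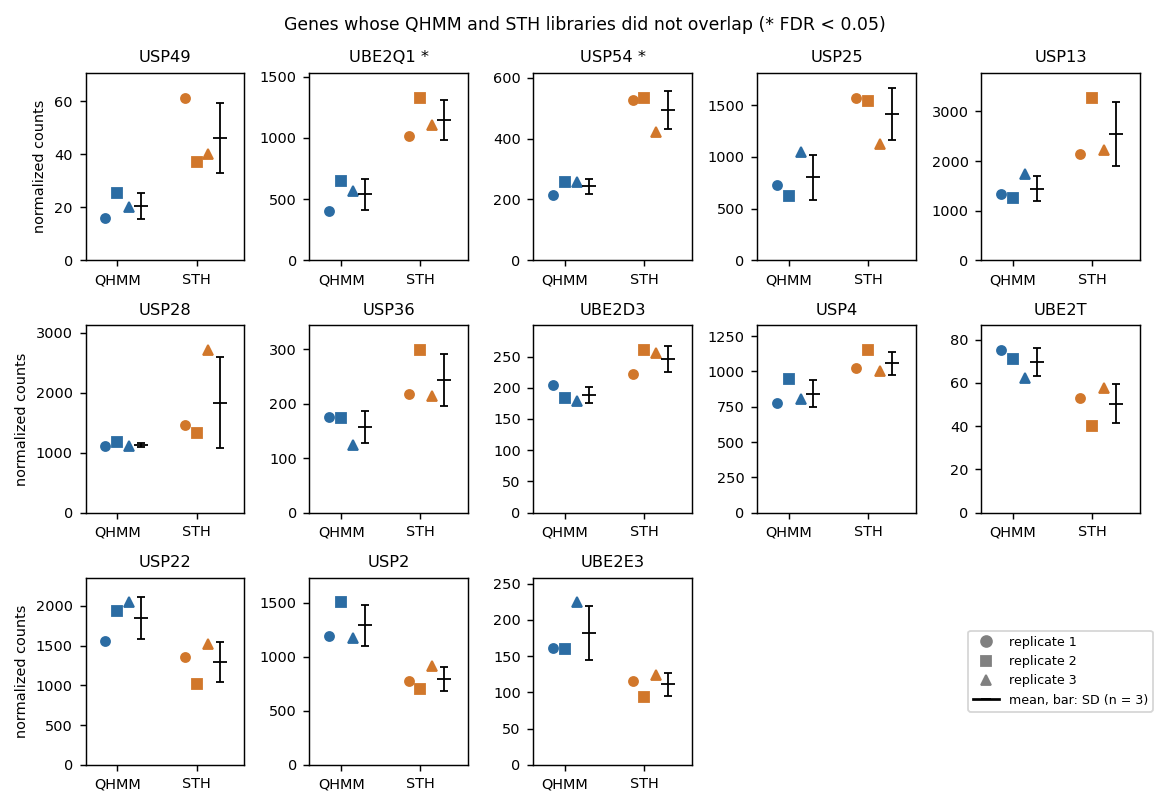
Normalized counts (y axes, from 0) of the 13 genes whose QHMM (blue) and STH (orange) libraries did not overlap, 1 panel per gene, with the mean and a bar for the SD (n = 3) beside each breed; the star marks an FDR below 0.05. UBE2Q1 and USP54 roughly double from QHMM to STH, the mean of USP28 in STH is set by replicate 3, and UBE2T, USP22, USP2 and UBE2E3 are the genes with lower STH values.

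USP5, USP13 and USP14 act on chains at or near the proteasome. USP5 takes apart free ubiquitin chains, USP13 is its close relative, and USP14 trims chains on the proteasome itself. USP13 had the highest mean RPKM of the family, with 1338, 1260 and 1731 normalized counts in QHMM and 2138, 3278 and 2213 in STH. All STH libraries were higher, and the log2 fold change was 0.82 (SE 0.25). It was not called with edgeR (FDR 0.109) but was with DESeq2, at a log2 fold change of 0.80 and an adjusted p of 0.0448. Without STH replicate 2 the edgeR value was 0.58. USP5 had 1093 to 1279 normalized counts in QHMM and 870 to 1195 in STH, a log2 fold change of -0.20 (SE 0.21). USP14 had a log2 fold change of -0.01 (SE 0.24), the smallest in size of the 3.

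USP2, USP19, USP25 and USP28 have been studied in muscle or in the clock. USP2 acts on clock proteins such as PER1 and BMAL1, USP19 is tied to muscle wasting, USP25 has a muscle isoform, and USP28 is the paralogue of USP25. USP2 was lower in all STH libraries, with 1191, 1506 and 1171 normalized counts in QHMM and 775, 698 and 916 in STH (log2 fold change -0.70, SE 0.22, FDR 0.111). USP25 was higher in all STH libraries, with 729, 625 and 1048 in QHMM and 1571, 1540 and 1123 in STH (log2 fold change 0.82, SE 0.26, FDR 0.111). USP28 had 1108, 1173 and 1101 in QHMM and 1467, 1319 and 2711 in STH. The fitted log2 fold change of 0.70 (SE 0.28, FDR 0.210) became 0.31 without STH replicate 3, the library with the highest count. USP19 had 976 to 1591 in QHMM and 1016 to 1355 in STH, a log2 fold change of -0.09 (SE 0.24). Of these 4 genes, 3 had an unadjusted p below 0.05, against 19.2% of all genes, and none was called with edgeR, DESeq2 or limma, against 3.45% of all genes with edgeR. The group was written by hand with earlier results known, so this share is a description.

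A row described as USP28-like, LOC101110820, had 185, 154 and 143 normalized counts in QHMM and 292, 191 and 359 in STH. It was higher in all STH libraries (log2 fold change 0.80, SE 0.27, FDR 0.136), and like USP28 it was highest in STH replicate 3. How reads are divided between USP28 and this row was not tested. Of 13 tested clock genes, 8 had an unadjusted p below 0.05, 3 higher and 5 lower in STH, and 1 (CRY2, lower) was called. Over all tested genes these shares were 19.2% and 3.45%. The summed level of the clock genes was 254 to 298 RPKM in QHMM and 227 to 320 in STH. PER2, a core clock gene, was at 0 in every library, as was the fast-fibre gene TNNT3. Whether a row of 0 reads reflects a silent gene was not tested. The part of the clock genes in the difference in USP2 was not tested.

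Several USPs remove ubiquitin from histones. USP22 is the deubiquitinase of the SAGA coactivator complex and USP49 acts on histone H2B. USP49 had the largest log2 fold change of the family but few reads, with 15.9, 25.6 and 20.1 normalized counts in QHMM and 61.4, 37.1 and 40.0 in STH. All STH libraries were higher, and the log2 fold change of 1.18 (SE 0.37) had an FDR of 0.113. USP22 had 1552, 1936 and 2047 in QHMM and 1355, 1019 and 1515 in STH, lower in all STH libraries (log2 fold change -0.51, SE 0.23, FDR 0.269). USP3, USP16 and USP21, which act on histone H2A, had log2 fold changes of 0.44, 0.38 and -0.16, with SEs of 0.33, 0.39 and 0.27. For each of these 3 the breeds overlapped.

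Of 10 USPs of DNA repair, the p53 pathway and the cell cycle, 8 had a positive log2 fold change (51.8% of all genes did). None was called with edgeR, DESeq2 or limma (3.45% of all genes were with edgeR). An unadjusted p below 0.05 was reached by 1 (19.2% of all genes did). USP36, a nucleolar enzyme, was that gene. It had 175, 174 and 124 normalized counts in QHMM and 217, 299 and 215 in STH, higher in all STH libraries (log2 fold change 0.62, SE 0.25, FDR 0.203). USP7, which acts on p53 and its ligase MDM2, had 1608 to 1980 in QHMM and 1789 to 2297 in STH (log2 fold change 0.14, SE 0.22). USP1, which works with WDR48 on FANCD2 and PCNA, had a log2 fold change of 0.28 (SE 0.31). USP47 varied widely within each breed, with 1211, 1161 and 2128 in QHMM and 1467, 2921 and 1733 in STH (log2 fold change 0.44, SE 0.33). USP45 had a log2 fold change of 0.96 (SE 0.52) from 5.81 to 38.2 normalized counts per library. The breeds overlapped, with STH replicate 3 (16.7) below QHMM replicate 3 (22.2). The other 5 (USP10, USP11, USP24, USP37 and USP48) lay between -0.19 and 0.45.

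Of 5 tested USPs of cell signalling, none was called with edgeR, DESeq2 or limma, against 3.45% of all tested genes with edgeR. None had an unadjusted p below 0.05 with edgeR, against 19.2% of all tested genes. USP4, one of these 5 USPs, was higher in all STH libraries. It had 773, 950 and 804 normalized counts in QHMM and 1021, 1153 and 1002 in STH. The difference, 0.33 on the log2 scale (SE 0.20), had an FDR of 0.411. USP9X, an X-linked enzyme with many substrates, had 895 to 1370 in QHMM and 584 to 997 in STH (log2 fold change -0.47, SE 0.26). USP15, which acts in TGF-beta signalling, had 184 to 319 in QHMM and 147 to 217 in STH (log2 fold change -0.43, SE 0.27). USP34, which acts in Wnt signalling, had a log2 fold change of -0.22, and USP31 one of 0.34. The breeds overlapped for these last 4 genes.

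USP30 sits on the mitochondrial outer membrane and opposes mitophagy, and USP8 acts on endosomes. USP30 had 376 to 451 normalized counts in QHMM and 396 to 410 in STH, a log2 fold change of -0.02 (SE 0.20). That of USP8 was 0.10 (SE 0.31), and those of USP20, USP32 and USP33 were -0.17, 0.33 and 0.33. USP12 and USP46 are close relatives that need WDR48 (UAF1) for full activity. USP12 had a log2 fold change of 0.41 (SE 0.30) and USP46 one of 0.12 (SE 0.24). The row tied to USP18, which removes ISG15, was LOC101103965, with a log2 fold change of -0.01 (SE 0.30). USP38, USP40 and USP42 had log2 fold changes of -0.18, 0.27 and 0.00, and USP6NL had -0.07 from 12.2 to 22.9 normalized counts per library.

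The 5 USP genes that were not tested had few or no reads. USP26 and USP44 had 0 reads in all 6 libraries, which allows up to 3 counts in a library. USP29 had at most 4.91 normalized counts in a library, USP43 at most 6.04 and USP35 at most 14.5, the last in STH replicate 3.

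Rows outside the symbol rule whose description or homology column named an E2 or a USP were counted apart. There were 37 for E2 genes, of which 14 were described as pseudogenes, 11 had no reads and 11 were tested, and 10 for USP genes, of which 3 had no reads and 5 were tested. None of these 16 tested rows was called with edgeR or DESeq2, and 1 (the USP28-like row) had an unadjusted p below 0.05 with edgeR. The shares over all tested genes with edgeR were 3.45% and 19.2%. Reads that fit a gene and a near-identical copy equally well were not kept, since only uniquely mapped reads were counted, so genes with such copies, the UBE2D genes among them, are uncertain.

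The members also varied within a breed. The median coefficient of variation of the normalized counts was 16.5% in QHMM and 19.8% in STH for the E2 genes, and 18.3% and 20.5% for the USP genes. Over all tested genes it was 20.7% and 23.9%. Of the 41 USP genes, 18 were highest in STH replicate 2, whose values lay a median of 0.27 above each gene's mean over the 6 libraries on the log2 scale. QHMM replicate 2 was the lowest library for 11 USP genes and STH replicate 3 for 10. Over all 12506 tested genes, STH replicate 2 was highest for 2851 and also lowest for 2651. QHMM replicate 2 was lowest for 2258 of these and STH replicate 3 for 2030. Tested genes at least as long as the median USP gene (2250 genes) had median deviations of -0.12 in QHMM replicate 2, -0.16 in STH replicate 3 and 0.05 in STH replicate 2. For the E2 genes, STH replicate 2 was highest for 9 of 27, and QHMM replicate 1 and STH replicate 1 were lowest for 9 and 8. The latter 2 were lowest for 1952 and 1519 of all 12506 tested genes. The part of gene length in these deviations was not tested.

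**Figure D4:**
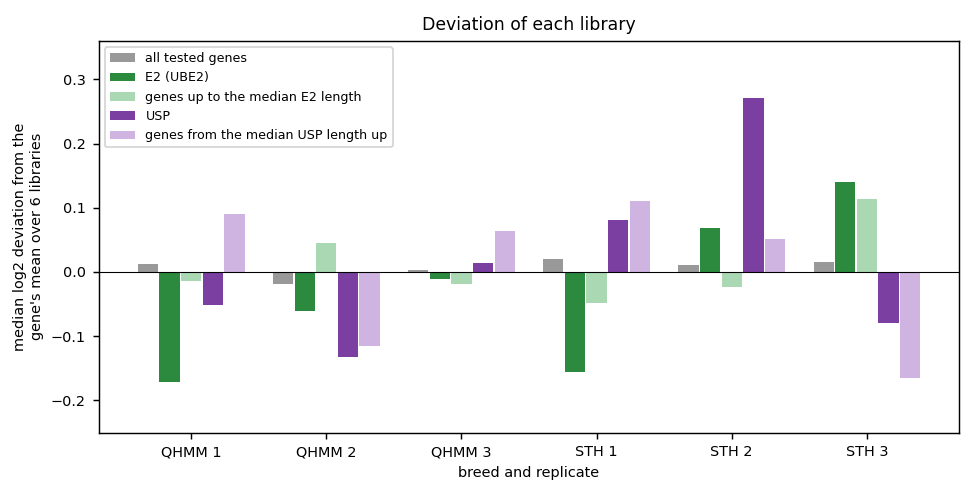
Median log2 deviation of each library (x axis) from a gene's mean over the 6 libraries (y axis), for all tested genes, the E2 genes, the USP genes, and tested genes up to the median E2 length or from the median USP length up. The USP bar is highest in STH replicate 2 at 0.27, while long genes and USP genes are both below 0 in QHMM replicate 2 and STH replicate 3.

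Other steps of the pathway were read from the same fit. In that fit 3.45% of all tested genes were called and 19.2% had an unadjusted p below 0.05. Of 8 E1 genes none was called with edgeR, DESeq2 or limma, and none had an unadjusted p below 0.05. UBA1, the main ubiquitin E1, had 3510 to 4604 normalized counts in QHMM and 3454 to 4623 in STH (log2 fold change -0.01), and UBA6 had a log2 fold change of 0.01. Of 9 genes for ubiquitin and its relatives none was called by the 3 tools, and none had an unadjusted p below 0.05.

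Over all tested genes, 3.45% were called with edgeR and 19.2% had an unadjusted p below 0.05. Of 8 E2 genes named outside the UBE2 series, none was called by the 3 tools. Among them, 2 (CDC34 and AKTIP) had an unadjusted p below 0.05, lower in STH. CDC34, the E2 of the SCF ligases and relative of UBE2R2, had 4061, 5092 and 3956 normalized counts in QHMM and 1912, 1882 and 4112 in STH. STH replicate 3 lay inside the QHMM range and the other STH libraries far below it (log2 fold change -0.73, SE 0.32, FDR 0.253). Of 31 tested deubiquitinases and related proteins under other symbols, whatever their class, 1 (CYLD) was called with edgeR and with limma. DESeq2 called 2 and added PSMD7, a proteasome lid subunit (edgeR log2 fold change 0.90, SE 0.28, FDR 0.106, higher in all STH libraries). CYLD, which removes K63-linked and linear chains in NF-kappaB signalling, rose from 171, 151 and 197 normalized counts in QHMM to 400, 348 and 392 in STH (log2 fold change 1.13, SE 0.21, FDR 0.0216). The FDR of CYLD was 0.0865, 0.0818 and 0.0540 without QHMM replicates 1, 2 and 3, and it stayed below 0.05 without any 1 STH library. Of 9 partners of USPs none was called by the 3 tools, and 2 (WDR20 and GMPS, partners of USP12 and USP46 and of USP7) had an unadjusted p below 0.05 and were higher in all STH libraries, with log2 fold changes of 0.84 and 0.70. WDR48 had a log2 fold change of 0.42 (SE 0.26).

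Of 19 tested E3 ligases studied in muscle, 2 were called with edgeR (10.5%, against 3.45% of all tested genes). DESeq2 called these and TRIM54 higher and FBXO40 lower, and limma called TRIM63 and TRIM54 but not FBXO32 (FDR 0.0666). An unadjusted p below 0.05 with edgeR was reached by 6 (31.6%, against 19.2%), 5 higher and 1 lower in STH. With edgeR, TRIM54 was higher in all STH libraries by 1.26 on the log2 scale (SE 0.34) and missed the threshold at an FDR of 0.0726. FBXO40 was lower in all of them, at -0.95 (SE 0.30, FDR 0.113). FBXO30 and CBLB were higher in all of them but not called, at 2.29 (SE 0.66, FDR 0.0848) and 0.84 (SE 0.28, FDR 0.129). For FBXO30, STH replicate 2 was far above the others. TRIM63 rose from 3366, 3478 and 2675 normalized counts in QHMM to 16617, 60506 and 32407 in STH (log2 fold change 3.52, SE 0.44, FDR 0.00489). FBXO32 rose from 526, 949 and 678 to 2046, 10043 and 1695 (log2 fold change 2.68, SE 0.61, FDR 0.0433), with STH replicate 2 far above the others. Without that library its log2 fold change was 1.37, and its FDR was 0.132, 0.0924 and 0.127 without QHMM replicates 1, 2 and 3. TRIM63 was called in all 6 fits that left out 1 library, with log2 fold changes between 2.94 and 3.86. Both called E3 genes had larger fold changes than any E2 or USP gene, which ranged from -1.61 to 1.18.

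**Figure D5:**
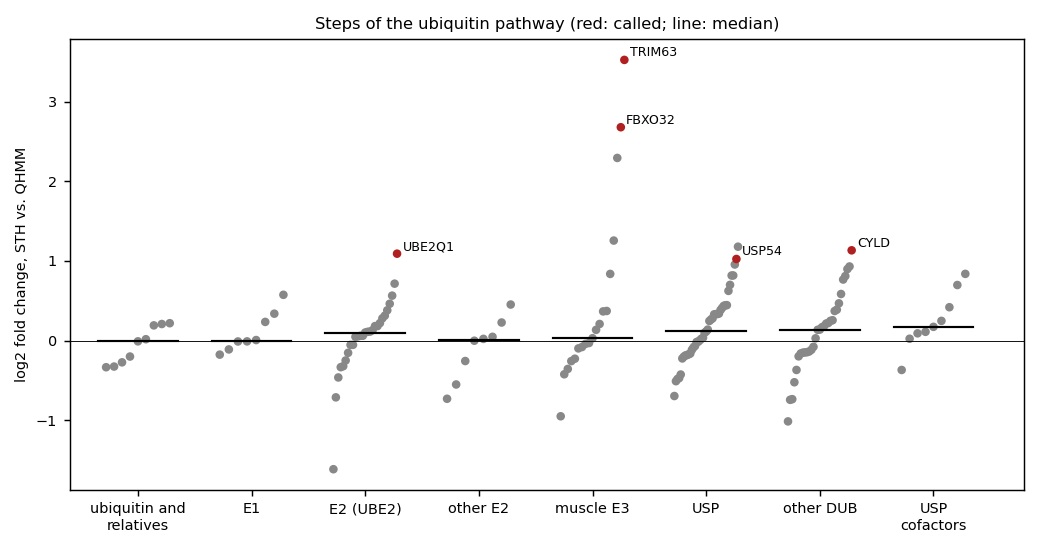
Log2 fold change (STH vs. QHMM, y axis) of each tested gene in 8 groups of the ubiquitin pathway, with red for called genes and a line for the median of the group. TRIM63 (3.52) and FBXO32 (2.68) stand above every other gene of the pathway, while the group medians lie between -0.01 and 0.17.

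Markers of other conditions and cell types moved with breed beside UBE2Q1 and USP54. The counts below stand against 3.45% of all tested genes called with edgeR and 19.2% with an unadjusted p below 0.05. Of 15 genes of the glucocorticoid and fasting response, 11 were called, all higher in STH, and their summed level was 301 to 635 RPKM in QHMM and 3029 to 3833 in STH. All 9 slow-fibre genes had an unadjusted p below 0.05 and were lower in STH, 4 of them called, at a summed 16602 to 24262 RPKM in QHMM and 7333 to 11445 in STH. Of 8 adipocyte genes 4 were called, all lower in STH, and the sums overlapped, with 93.6 to 413 RPKM in QHMM and 58.8 to 170 in STH. Of 9 fast-fibre, 5 fibroblast, 4 endothelial and 9 leukocyte genes that were tested, none was called with edgeR, 2, 2, 0 and 1 had an unadjusted p below 0.05, and DESeq2 called 1, 2, 0 and 0. All 9 fast-fibre and all 5 fibroblast genes had negative log2 fold changes, with medians of -0.32 and -0.89. Of the endothelial genes 2 were positive and 2 negative, and of the leukocyte genes 3 and 6. Over all tested genes 51.8% were positive. The part of these markers in the differences of the E2 and USP genes was not tested.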

How the data were processed

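Longissimus dorsi RNA of 3 QHMM and 3 STH sheep was sequenced, with 1 library per animal. Reads from an Ion Proton instrument were mapped by the authors to the Oar 3.1 assembly of sheep, and uniquely mapped reads per gene were deposited as counts without normalization. The authors also deposited RPKM values, which scale these counts by gene length and library total. The aligner, the counting program, its use of strand and the annotation are not given in the sources used here, so reads of overlapping antisense genes cannot be told apart. The QHMM libraries held 14334544, 12980936 and 12382244 reads on genes, the STH libraries 13107349, 10982191 and 13546561, and counts of 0 to 3 were taken as the floor, for counting error only.

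Counts were tested in R 4.3.3 with edgeR 4.0.16 (TMM, filterByExpr on breed, quasi-likelihood F test, Benjamini-Hochberg adjustment over 12506 genes), on all 6 libraries with breed as the only term. Calls needed an FDR below 0.05 and a fold change above 1.5 in either direction, the study's thresholds, whose program EBSeq was not installed. The SE is the log2 fold change divided by the square root of F. Levels between genes were compared on RPKM only. Among the RPKM rows, 25 gene names had become dates, none of them a member, and these rows were left out.

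Members and gene lists were chosen with earlier results of these data known. Named are members with an FDR below 0.05, up to 10 per family by fold change among those whose breeds did not overlap at a mean of at least 20 normalized counts, the 5 per family with the highest RPKM, members at the floor and members standing for a role. The remaining members are named to account for the families. Of pathway lists, called genes and listed key genes are named. AKTIP, WDR20, GMPS, PSMD7, TRIM54, FBXO40, FBXO30, CBLB, TNNT3, the proliferation markers and the rows outside the symbol rule were chosen after their values were seen.

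Alternatives were DESeq2 1.42.0, upper-quartile normalization, other count filters, the replicate number as a block, the 20 most abundant genes left out, limma-trend (limma 3.58.1) on log2(RPKM + 1) and log2(RPKM + 0.1), an FDR threshold of 0.01, no minimum fold change, and leaving out each library. Leaving out QHMM replicate 2 and STH replicate 3 together was added after seeing the data. Scripts were tested on simulated data. Plots were drawn with matplotlib 3.10.9. Symbols of 73 of the 74 members matched a RefSeq gene table of another assembly, so no coordinates or sequences are given. Some genes of the pathway are not reported here.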

Additional observations from a re-analysis of the deposited data

How the results depend on the processing

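Over the 9 other choices of test, scaling and filter with all 6 libraries, UBE2Q1 stayed called in 8 and USP54 in 6, each with a positive log2 fold change throughout. The number of E2 genes called was 0 with limma-trend on log2(RPKM + 1) without a filter on low values, and 0 at an FDR threshold of 0.01. The number of USP genes called was 2 with DESeq2 (USP54 and USP13), 0 with the 3 limma-trend fits, where 6 or 7 USP genes had an unadjusted p below 0.05, and 0 at an FDR threshold of 0.01. Leaving out 1 library gave 0 to 1 calls in each family, with 2 to 4 E2 and 6 to 8 USP genes at an unadjusted p below 0.05. Without QHMM replicate 2 and STH replicate 3 together, 0 E2 and 0 USP genes were called, 2 and 6 had an unadjusted p below 0.05, and the log2 fold changes of UBE2Q1 and USP54 were 1.26 (FDR 0.131) and 1.16 (FDR 0.118). That fit had fewer samples and called 11 of all genes. Over all genes the number called was 973 with DESeq2, 806 without a filter on low counts, 78 with limma-trend without a filter and 41 at an FDR of 0.01, and 131 to 535 when 1 library was left out. With limma-trend on log2(RPKM + 1), 212 of all genes were called higher and 134 lower (61.3% higher, against 47.0% with edgeR), and with 0.1 in place of 1 it was 203 and 125 (61.9%). These 2 fits moved the median of all genes to 0.12 and 0.14, and the E2 median to 0.17 and 0.22. The cause was not tested.

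The family medians lay between -0.03 and 0.22 for the E2 and between 0.01 and 0.25 for the USP genes over all settings. These moves were smaller than the spread between replicates, which is itself larger than either median, and the E2 median changed sign. The log2 fold change of UBE2G1 reversed to -0.0751 without QHMM replicate 1, to -0.0559 without STH replicate 2 and to -0.0236 without both libraries that lay apart, and that of UBE2G2 to -0.0146 without QHMM replicate 1. Over the fits without 1 library, UBE2G1 ranged from -0.0751 to 0.21 and UBE2G2 from -0.0146 to 0.29. Without 1 library, 12 other uncalled members also changed sign. The lowest values were -0.17 for USP8, -0.15 for UBE2K, -0.11 for UBE2J1, -0.11 for UBE2N, -0.07 for USP46 and -0.06 for UBE2B, and UBE2A and UBE2V2 came to just below 0. The highest values were 0.13 for USP14, 0.09 for USP19, 0.07 for USP30 and 0.04 for UBE2F, which were negative with 6 libraries. Without STH replicate 2, UBE2D1, UBE2H and USP12 had values of 0.37, 0.11 and 0.10. UBE2J1 had 0.39 without QHMM replicate 3, USP53 had -0.90 without STH replicate 1, and without both libraries that lay apart UBE2L6 had 0.07 and USP12 0.72.

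The labels state no pairing by replicate number. The deviations of same-numbered libraries correlated at 0.22, -0.03 and -0.12. Those of differently numbered libraries ranged from -0.26 to 0.28, the highest between QHMM replicate 2 and STH replicate 3. Whether any of these libraries shared a batch was not tested. With the replicate number as a block, 457 of all genes, 1 E2 gene and 1 USP gene were called, and UBE2Q1 and USP54 had FDRs of 0.0315 and 0.0492. The filter on low counts left 1 E2 and 5 USP genes untested, and the part of sequencing depth in this was not tested. Of the members that were tested, UBE2C, USP45, USP6NL and UBE2W had SEs above 0.4, and the cause was not tested.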

Other observations

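The genes next to the called members were read from the gene order of RefSeq's sheep assembly ARS-UI_Ramb_v3.0, another build than that of the files. UBE2Q1 lies between TDRD10 and CHRNB2, which had too few reads to be tested, and the next genes, SHE and ADAR, had log2 fold changes of -0.31 and 0.11 and were not called. USP54 lies between PPP3CB, a calcineurin subunit gene, and MYOZ1, a Z-disc protein gene. PPP3CB was lower in all STH libraries (log2 fold change -0.81, FDR 0.0913), and MSS51, the gene beyond it, was down-regulated (log2 fold change -1.74, FDR 0.0385), while MYOZ1 and SYNPO2L on the other side had values of 0.26 and -0.08. The up-regulation of USP54 was thus not shared by these neighbours, which were looked up after the values of the members were seen.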
